A study of Mus musculus with 12 samples.

Results

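The genes of MHC class II antigen presentation were followed in sorted fractions of mouse melanomas: H2-Aa, H2-Ab1, H2-Eb1, H2-DMa, H2-DMb1, H2-DMb2, H2-Oa, H2-Ob, Cd74 and Ciita. They were chosen by name, as the probes whose annotated gene symbol was one of these 10. All 10 had a probe, 14 probes in all of 25697 on the array, and all 14 passed the detection filter, so the 10 genes were among 7894 tested. H2-Ab1 had 4 probes and Cd74 had 2, and the brightest stood for the gene.

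C57BL6 mice received 25000 cultured cells of the B16 melanoma line under the skin of the flank, from 1 of 2 forms called F4 and F0. F4 is labelled as having acquired resistance to earlier checkpoint inhibitor therapy, and F0 as having had no such therapy. Tumors of 100 to 400 mm3 from 3 mice were pooled for each replicate and sorted by tdTomato fluorescence into a positive (tumor) and a negative (microenvironment) fraction. The groups were tumor F4 (pools A to D, n = 4), tumor F0 (pools B2 and B3, n = 2), microenvironment F4 (A to D, n = 4) and microenvironment F0 (B2 and B3, n = 2). By the treatment protocol all mice, F0 included, had 3 injections of checkpoint inhibitors together with Fvax, a vaccine of B16 cells that express Flt3 ligand, whereas the label of the F0 samples gives no prior or current checkpoint inhibitor. The sources used here do not settle this. F4 and F0 are each 1 cell line grown in several pools, and p-values measure the spread between pools. The tumor arrays shared a chip and the microenvironment arrays shared a second one, and an effect of the chip cannot be told apart from that of the fraction.

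MHC class II molecules are pairs of an alpha and a beta chain that carry peptides from the endosome to the cell surface, where CD4+ T cells read them. The invariant chain, encoded by Cd74, holds the groove during assembly, H2-DM catalyses the exchange of its remnant for other peptides, and H2-O restrains H2-DM. Dendritic cells, B cells and many macrophages express these genes constitutively or on activation. Many other cells, melanoma cells among them, can switch them on under interferon gamma through Ciita, a coactivator that acts with the RFX complex, CREB and NF-Y at the X and Y boxes of the promoters.

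The promoters of these genes are shown because the shared boxes are the sites through which Ciita acts. A table of RefSeq promoters for assembly GRCm38.p6, each running from 250 bases before to 50 bases after the annotated start, held 7 of the 10 genes in 8 entries, H2-DMa having 2 starts. The entries searched did not include H2-Ab1, Cd74 and Ciita. The motifs were chosen after these sequences had been read and were searched on both strands. A match describes the letters in this window and is neither a site nor a cause. In the windows below, 75 bases each and all on chromosome 17, capitals mark the Y box core ATTGG, the X box stretch AACNNATGA and, in H2-Aa, the cAMP response element TGACGTCA. The windows were chr17:34287852-34287926 on the minus strand for H2-Aa and, on the plus strand, chr17:34305753-34305827 for H2-Eb1, chr17:34153075-34153149 for H2-DMb1, chr17:34145104-34145178 for H2-DMb2, chr17:34092281-34092355 for H2-Oa and chr17:34238793-34238867 for H2-Ob.
H2-Aa: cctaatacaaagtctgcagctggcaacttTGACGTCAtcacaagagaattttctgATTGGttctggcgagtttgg
H2-Eb1: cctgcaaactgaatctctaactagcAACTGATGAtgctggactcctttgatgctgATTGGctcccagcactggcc
H2-DMb1: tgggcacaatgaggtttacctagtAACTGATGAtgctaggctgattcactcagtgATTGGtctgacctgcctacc
H2-DMb2: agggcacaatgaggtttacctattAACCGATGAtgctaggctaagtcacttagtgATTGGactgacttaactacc
H2-Oa: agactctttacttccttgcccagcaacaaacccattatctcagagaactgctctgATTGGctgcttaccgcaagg
H2-Ob: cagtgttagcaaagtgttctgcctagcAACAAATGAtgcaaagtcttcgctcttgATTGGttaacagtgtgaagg

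The core ATTGG was in 7 of the 8 entries, against 37.4% of all 32851 promoters in the table. The exception was the first start of H2-DMa. The stretch AACNNATGA was in 4 of the 8 entries (H2-Eb1, H2-DMb1, H2-DMb2 and H2-Ob), against 935 promoters, or 2.85%, of the table. TGACGTCA was in 1 of the 8, H2-Aa, against 1.79%. AACNNATGA followed within 40 bases by ATTGG occurred in the same 4 of 8 entries and in 41 promoters of the table, or 0.125%. The bases between both motifs numbered 21 in H2-Eb1, 22 in H2-DMb1, 22 in H2-DMb2 and 19 in H2-Ob. The windows of H2-DMb1 and H2-DMb2, genes for the beta chain of H2-DM that lie close together and resemble each other, had the same base at 65 of 75 positions, and cross-hybridisation between their probes was not tested.

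Signals are on the log2 scale after background correction and quantile normalization, so that 1 unit is a doubling, and a gene counted as detected on an array where its detection p was below 0.01. Levels of different genes come from different probes and are not set against each other. In the markers of other cell types 3 arrays stood apart from their groups, and each comparison of the class II genes is also given without them. Tumor F4 A had a mean of 10.9 over 7 general leukocyte markers and 10.2 over 8 macrophage markers, while the other tumor F4 arrays lay between 6.38 and 8.38 and between 6.39 and 8.88. Microenvironment F4 D and microenvironment F0 B3 had means of 10.83 and 10.71 over 6 melanocyte markers, against 8.8 to 9.7 on the other microenvironment arrays. In bulk fractions, a change in the number of cells of a type cannot be told apart from a change in RNA per cell.

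The classical class II chains were present on all arrays of the microenvironment and varied widely among the tumor arrays. H2-Ab1, the beta chain of I-A, had 12.98, 10.69, 10.30 and 8.30 in tumor F4 A to D and 11.46 and 6.19 in tumor F0 B2 and B3. Its microenvironment values were 12.35, 13.73, 13.97 and 12.23 in F4 A to D and 12.83 and 12.38 in F0 B2 and B3. Tumor F4 A lay among the microenvironment arrays and tumor F0 B3 lay lowest of all 12, so the tumor F4 and F0 groups overlapped.

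H2-Aa, the alpha chain of I-A, had 9.77, 7.73, 6.64 and 5.51 in tumor F4 A to D and 8.0 and 4.47 in tumor F0 B2 and B3, the last below detection. In the microenvironment it had 9.37, 10.78, 11.12 and 9.01 in F4 and 10.03 and 9.16 in F0. The order of the tumor arrays was that of H2-Ab1.

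H2-Eb1, the beta chain of I-E, is transcribed in C57BL6 mice although these lack the E alpha chain. It had 12.43, 10.09, 9.58 and 7.19 in tumor F4 A to D and 11.06 and 5.38 in tumor F0 B2 and B3. Its values were 11.78, 13.20, 13.50 and 11.84 in microenvironment F4 and 12.43 and 11.79 in microenvironment F0. From tumor F0 B3 to tumor F4 A it spanned 7.04 units, the widest range of the 10 genes among the tumor arrays.

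Cd74, the invariant chain, had 13.17, 11.43, 11.02 and 9.45 in tumor F4 A to D and 12.35 and 6.72 in tumor F0 B2 and B3. In the microenvironment it had 12.58, 13.86, 14.19 and 12.67 in F4 and 12.95 and 12.54 in F0. Cd74 thus stayed detected on all 12 arrays, with both extremes of the tumor fraction on the same arrays as for the I-A chains.

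The H2-DM genes fell into 2 patterns. H2-DMa, the alpha chain, had 10.79, 8.91, 8.43 and 7.30 in tumor F4 A to D and 10 and 5.58 in tumor F0 B2 and B3. It had 10.01, 11.70, 11.52 and 9.74 in microenvironment F4 and 10.84 and 10.09 in microenvironment F0. These values followed the classical chains, with a range of 5.21 among the tumor arrays.

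H2-DMb1, a beta chain of H2-DM, had 10.17, 8.92, 8.57 and 8.42 in tumor F4 A to D and 9.56 and 7.60 in tumor F0 B2 and B3. Its microenvironment values were 9.03, 11, 11.10 and 9.24 in F4 and 9.99 and 9.24 in F0. The tumor arrays kept the same order for this gene but spanned 2.57 units, and the tumor and microenvironment values overlapped in both lines.

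H2-DMb2, the other beta chain gene, was not detected on any tumor array. Its signals there were 5.41, 4.61, 4.72 and 4.33 in F4 A to D and 4.67 and 4.36 in F0 B2 and B3. In microenvironment F4 it had 5.47 on array A, which was also below detection, and 7.35, 7.52 and 6.44 on B to D, while microenvironment F0 had 7.58 and 6.62. No tumor value reached the lowest microenvironment value, but tumor F4 A and microenvironment F4 A lay 0.06 apart.

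Both H2-O chains were near the floor of the tumor arrays. H2-Oa, the alpha chain, had 6.09, 4.52, 4.43 and 4.56 in tumor F4 A to D and 4.51 and 4.33 in tumor F0 B2 and B3, detected on F4 A only. Its microenvironment values were 6.56, 7.66, 7.85 and 6.73 in F4 and 7.35 and 6.18 in F0, all detected. H2-Ob, the beta chain, had 5.56, 4.51, 4.50 and 4.44 in tumor F4 A to D and 4.49 and 4.54 in tumor F0 B2 and B3, again detected on F4 A only. It had 6.01, 7.63, 7.42 and 6.90 in microenvironment F4, the first of these not detected, and 7.04 and 6.31 in microenvironment F0. For both genes the fractions did not overlap in either line.

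Ciita, the coactivator, had 7.26, 5.24, 4.95 and 4.58 in tumor F4 A to D and 6.16 and 4.40 in tumor F0 B2 and B3. It was detected on 2 of the 4 tumor F4 arrays (A and B) and on 1 of the 2 tumor F0 arrays (B2). In the microenvironment it had 7.16, 8.35, 9.11 and 6.03 in F4 and 7.04 and 7.06 in F0, detected on all. Tumor F4 A exceeded microenvironment F4 D, so the fractions overlapped in F4, while in F0 they did not.

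**Figure D1:**
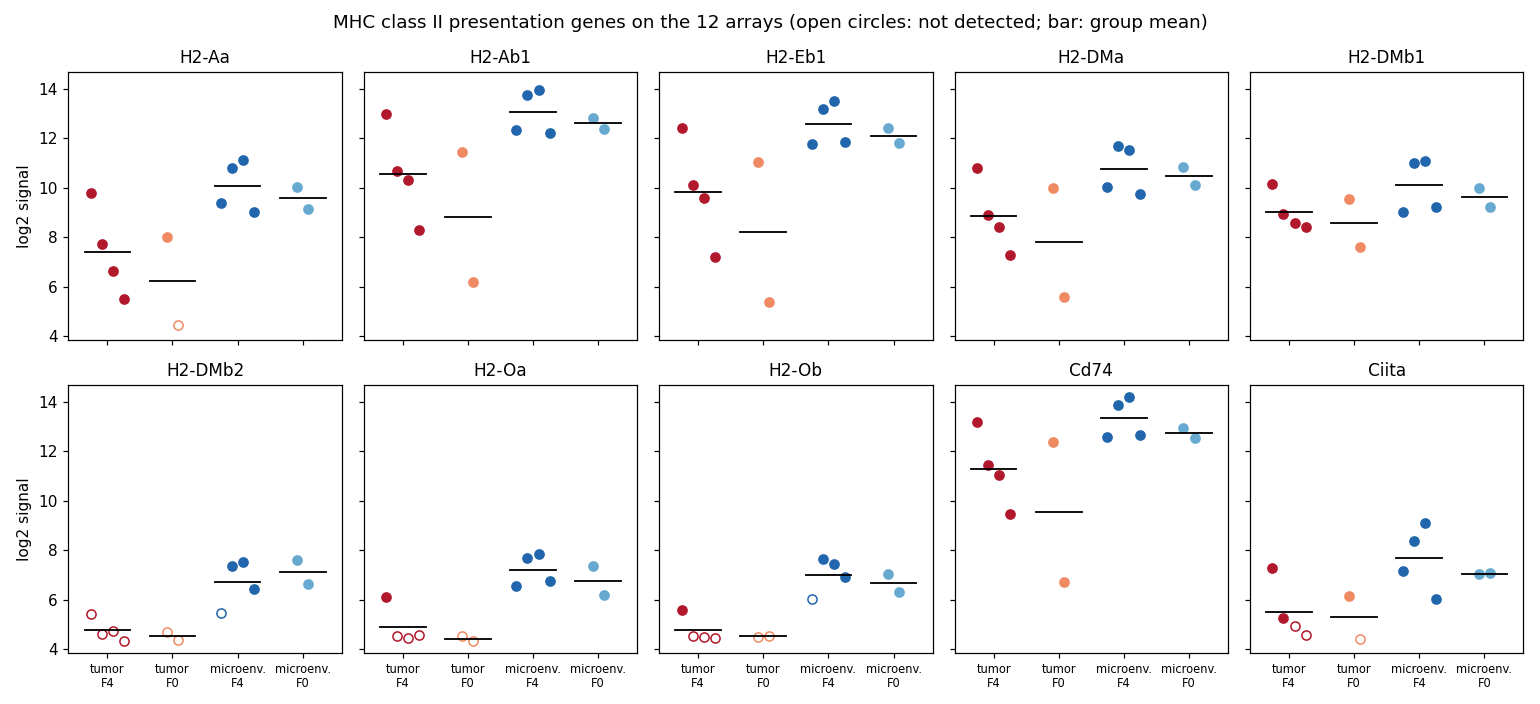
Log2 signal (y axis) of the 10 class II genes, 1 panel per gene and 1 point per array, in tumor F4, tumor F0, microenvironment F4 and microenvironment F0. Bars are group means and open circles are arrays where the gene was not detected. H2-DMb2 is open on all 6 tumor arrays, and H2-Ab1, H2-Eb1 and Cd74 spread over more than 6 units in the tumor fraction.

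No class II gene differed between F4 and F0 tumor cells by more than the spread between pools. None of the 10 passed an adjusted p of 0.05 in limma's moderated test with Benjamini-Hochberg adjustment over all genes tested, where 7 genes in all, or 0.0887%, did. At an unadjusted p below 0.05 there were again 0 of 10, against 2.09% of all genes. All 10 differences were above 0, as for 46.8% of all genes, with a median of 0.78 against -0.02 over all genes. In the same comparison 7 of 7 leukocyte markers (median 0.93), 8 of 8 macrophage markers (median 0.70) and 6 of 7 T cell markers (median 1.0) were above 0. So were 2 of 4 dendritic cell markers (median -0.05) and 2 of 3 B cell markers (median 0.16). None of these markers passed, and their part in the class II differences was not tested.

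The classical chains and Cd74 had the largest of these differences and the widest intervals. Cd74 averaged 11.27 ± 1.53 in tumor F4 (SD, n = 4) and 9.53 ± 3.98 in tumor F0 (n = 2), a difference of 1.73 with a 95% interval of -1.12 to 4.59. H2-Ab1 averaged 10.57 ± 1.92 in tumor F4 and 8.82 ± 3.73 in tumor F0, a difference of 1.74 (-1.25 to 4.74). The differences of H2-Eb1, H2-Aa and H2-DMa were 1.60, 1.18 and 1.07, and those of the other 5 genes ran from 0.23 for Ciita to 0.48 for H2-Oa. No gene had F4 and F0 tumor arrays that did not overlap, against 5.43% of all genes with F4 wholly above F0.

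For 7 of the 10 genes the direction rested on tumor F0 B3. Without that array the F4 minus F0 difference was -1.09 for Cd74, -0.89 for H2-Ab1, -1.23 for H2-Eb1, -0.57 for H2-Aa, -1.14 for H2-DMa, -0.54 for H2-DMb1 and -0.63 for Ciita. It stayed above 0 for H2-DMb2 (0.10), H2-Oa (0.38) and H2-Ob (0.25), genes at the floor of most tumor arrays, and without tumor F4 A that of H2-Ob was -0.03. Without tumor F0 B2 it was 4.54 for Cd74 and 4.36 for H2-Ab1. Leaving out the 3 arrays that stood apart gave 0 of 10 genes passing, with 1.12 for Cd74, 0.97 for H2-Ab1 and -0.38 for Ciita.

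Tumor F4 D and tumor F0 B3 had similar means of leukocyte markers, and their class II values differed for some genes and not for others. Their means over 7 leukocyte markers were 6.38 on F4 D and 6.51 on F0 B3, those over 8 macrophage markers 6.39 and 6.94, and those over 6 melanocyte markers 11.05 and 10.94. The mean of the 10 class II genes was 6.41 on F4 D and 5.36 on F0 B3, and Cd74 alone was 9.45 and 6.72. Ciita (4.58 on F4 D and 4.40 on F0 B3), H2-DMb2 (4.33 and 4.36) and H2-Ob (4.44 and 4.54) were below detection on both. The mean of 9 class I presentation genes was 7.68 on F4 D and 6.68 on F0 B3. These are single arrays, and the difference between them was not tested.

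In the microenvironment the F4 and F0 values of every class II gene overlapped. None of 10 passed, where 0 of 7894 genes, or 0%, did, and 0 of 10 had an unadjusted p below 0.05, against 2.44% of all genes. Of 10 differences 9 were above 0 (46.1% of all genes), with a median of 0.47 against -0.03 over all genes. Ciita had the largest at 0.61 (95% interval -1.33 to 2.56), with 7.66 ± 1.35 in microenvironment F4 and 7.05 ± 0.01 in microenvironment F0. H2-DMb2 was the exception at -0.41 (-1.57 to 0.76), with 6.69 ± 0.94 in microenvironment F4 and 7.10 ± 0.67 in microenvironment F0. Without the 3 arrays that stood apart, 0 of 10 passed, Ciita stood at 1.18 and H2-DMb2 at -0.82.

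The F4 minus F0 difference in the tumor fraction was tested directly against that in the microenvironment. None of the 10 genes passed, as none of all 7894 did (0%), and 0 of 10 had an unadjusted p below 0.05, against 1.23%. The differences between differences ran from -0.39 for Ciita (95% interval -3.14 to 2.36) to 1.28 for H2-Ab1 (-2.96 to 5.51), intervals that leave room for changes of several units either way. Without the 3 arrays that stood apart 0 of 10 passed, with -1.56 for Ciita and 0.46 for H2-Ab1.

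**Figure D2:**
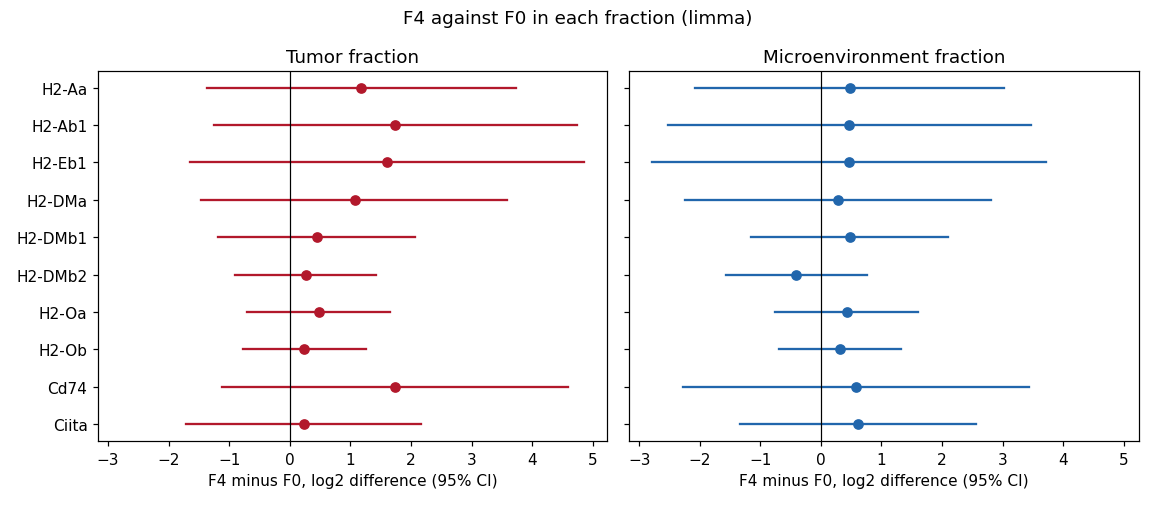
F4 minus F0 difference in log2 signal (x axis) for each class II gene (y axis), in the tumor fraction on the left and in the microenvironment on the right. Points are limma estimates and lines 95% confidence intervals, which all include 0.

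Between the fractions of F4 tumors H2-Ob, H2-Oa, H2-DMb2 and, at the edge of the threshold, Ciita were lower in tumor cells. These 4 of the 10 genes passed an adjusted p of 0.05, where 11.2% of all genes passed in that direction and 24.6% in either. An unadjusted p below 0.05 was reached by 7 of 10, against 45.9% of all genes. All 10 differences were below 0, as for 40.2% of all genes. The median difference was -2.20, against 0.20 over all genes.

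H2-Ob averaged 4.75 ± 0.54 in tumor F4 and 6.99 ± 0.72 in microenvironment F4 (SD, n = 4 each), a difference of -2.24 ± 0.37 (SE, adjusted p = 0.00987 by limma). H2-Oa averaged 4.90 ± 0.80 in tumor F4 and 7.20 ± 0.65 in microenvironment F4, a difference of -2.30 ± 0.44 (adjusted p = 0.0142 by limma). H2-DMb2 averaged 4.77 ± 0.46 in tumor F4 and 6.69 ± 0.94 in microenvironment F4 (-1.93 ± 0.44, adjusted p = 0.0195 by limma). As it was not detected in tumor F4, its fold difference was also estimated with the tumor level set at a floor. That floor was, per array, the higher of the gene's own signal and the lowest signal of any detected probe. By this estimate H2-DMb2 was 2.77-fold lower in tumor F4. The estimate is not a lower limit, since the confidence interval of the difference of -1.93 ran from -2.88 to -0.97. H2-DMb2, H2-Oa and H2-Ob passed the detection filter only through the microenvironment arrays, and on the tumor arrays they lay at the floor except on F4 A. Their residual spread within groups was 0.69, 0.70 and 0.58, against 1.56 to 2.02 for H2-Aa, H2-Ab1, H2-Eb1, H2-DMa and Cd74, and values at the floor vary little. In these 3 genes, or 3 of 10, no tumor array reached a microenvironment array, against 8.96% of all genes. On microenvironment F4 A, however, H2-DMb2 (5.47) and H2-Ob (6.01) were below detection, while H2-Ob was detected on tumor F4 A (5.56). For H2-DMb2 and H2-Ob the lack of overlap thus rests on a microenvironment signal below detection.

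Ciita averaged 5.51 ± 1.2 in tumor F4 and 7.66 ± 1.35 in microenvironment F4, a difference of -2.16 ± 0.72 with an adjusted p of 0.0498 by limma. That call held in 7 of 23 other settings of the analysis, whereas that of H2-Ob held in 23 of 23, that of H2-Oa in 20 of 23 and that of H2-DMb2 in 17 of 22.

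The other 6 genes did not pass, although 3 of them had larger differences than any of the 4 above. H2-Eb1 differed by -2.76 ± 1.21 (adjusted p = 0.0998 by limma), H2-Aa by -2.66 ± 0.95 (0.0578) and H2-Ab1 by -2.50 ± 1.11 (0.104). Cd74 differed by -2.06 ± 1.06 (0.146), H2-DMa by -1.89 ± 0.94 (0.135) and H2-DMb1 by -1.07 ± 0.61 (0.178). Their standard errors reflect the residual spread within groups, whose median was 1.37 units over the 10 genes, against 0.41 over all genes. With the pool as a block, H2-Aa passed as well, which made 5 of 10. In that fit 1133 of 7894 genes were lower and 2616 passed in either direction.

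These calls depended on single arrays, as did the count over all genes, which was 1939 with all arrays. Without tumor F4 A 7 of 10 passed, beside 2974 genes in all. Without tumor F4 B, C or D only H2-Ob did, beside 80, 77 and 78 genes in all. Without microenvironment F4 B or C H2-Oa and H2-Ob did, beside 511 and 273 genes in all. Without the 3 arrays that stood apart 9 of 10 passed as lower, against 21.3% of all genes in that fit, all but Cd74, whose difference was then -2.80 (adjusted p = 0.0918 by limma). H2-Aa was then at -3.83, Ciita at -3.42 and H2-DMb1, the smallest, at -1.73. For H2-Ab1, H2-Eb1, H2-DMa and H2-DMb1 the call was at the edge of the threshold. Tumor F4 A, which is left out here, had the highest class II mean of the tumor arrays (9.36). Microenvironment F4 D, also left out, had 9.08, against 10.53 and 10.73 on F4 B and C. The wider gap between the fractions thus follows in part from the choice of arrays.

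In F0 tumors, with 2 arrays a group, no class II gene passed between the fractions. The count was 0 of 10, where 0.646% of all genes passed as lower and 0.912% in either direction, and 6 of 10 had an unadjusted p below 0.05, against 24.6% of all genes. All 10 differences were below 0, as for 39.8% of all genes. In 9 of 10 genes, all but H2-DMb1, both tumor arrays lay below both microenvironment arrays, against 23.6% of all genes. Of these, H2-DMb2, H2-Oa and H2-Ob were not detected in tumor F0 and passed the detection filter only through the microenvironment. Their place below it thus follows in part from the filter. H2-DMb2 averaged 4.51 ± 0.22 in tumor F0 and 7.10 ± 0.67 in microenvironment F0. The difference was -2.59 ± 0.62 (adjusted p = 0.0664 by limma). H2-Oa differed by -2.35 ± 0.62 (adjusted p = 0.0759 by limma) and H2-Ob by -2.16 ± 0.53 (adjusted p = 0.0695 by limma). With the tumor level set at the floor, H2-DMb2, H2-Oa and H2-Ob were 3.82-fold, 3.03-fold and 2.84-fold lower in tumor F0. These estimates are not lower limits. The confidence intervals of the 3 differences ran from -3.94 to -1.24, from -3.71 to -0.99 and from -3.32 to -1. The largest differences, -3.89 for H2-Eb1 and -3.78 for H2-Ab1, had standard errors of 1.71 and 1.58. Without tumor F4 A alone H2-DMb2, H2-Oa and H2-Ob passed, beside 613 genes in all. Without microenvironment F0 B3 alone these genes differed by -3.13, -3.00 and -2.59. Without the 3 arrays that stood apart they differed by -3.23, -3.11 and -2.69. The last 2 settings keep 1 array of microenvironment F0, B2, on which these genes were higher than on B3, so no calls are read from them. Without microenvironment F4 A alone H2-DMb2 and H2-Ob passed, beside 87 genes in all.

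Within a pool, both fractions come from the same 3 mice, and pool A of F4 differed from the other 5 pools. There the tumor minus microenvironment difference was 0.63 for H2-Ab1, 0.64 for H2-Eb1, 0.41 for H2-Aa, 0.59 for Cd74, 0.78 for H2-DMa, 1.14 for H2-DMb1 and 0.10 for Ciita. It was -0.47 for H2-Oa, which was detected in both fractions. H2-DMb2 was detected in neither fraction of pool A and H2-Ob in the tumor fraction only, so their differences are not read. These are single arrays, and no test was made within the pool.

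In pools B, C and D of F4 the difference lay between -4.65 (H2-Eb1 in D) and -0.82 (H2-DMb1 in D) over the 10 genes, with H2-DMb2, H2-Oa and H2-Ob at the floor in the tumor fraction. In F0 the pools diverged. H2-Ab1 differed by -1.37 in B2 and by -6.19 in B3, and Cd74 by -0.60 in B2 and by -5.82 in B3. H2-DMb2, H2-Oa and H2-Ob were not detected in the tumor fraction of either pool, so they could not show such a split.

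**Figure D3:**
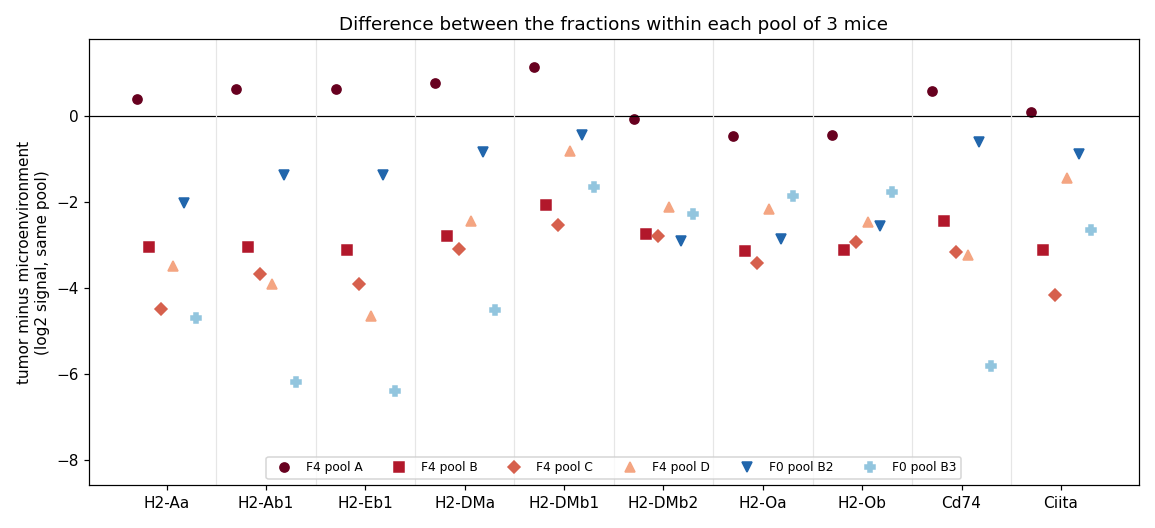
Tumor minus microenvironment difference in log2 signal within each pool of 3 mice (y axis) for the 10 class II genes (x axis), 1 symbol per pool. F4 pool A is above 0 for 7 genes, and the other 5 pools are below 0 for all 10.

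Among the 6 tumor arrays the class II genes varied more than most genes and did so together. The median range over the 10 genes was 4.03 units in the tumor fraction, against 0.76 over all genes, and 1.86 in the microenvironment, against 1.19. As a description over 6 tumor arrays, each gene's correlation with the mean of the other 9 was 0.960 to 0.989 for H2-Aa, H2-Ab1, H2-Eb1, H2-DMa, H2-DMb1 and Cd74. It was 0.926 for Ciita and 0.662 to 0.872 for H2-Ob, H2-Oa and H2-DMb2, which were mostly below detection there. In the microenvironment the correlations ran from 0.753 for H2-DMb2 to 0.996 for H2-DMb1 and H2-Eb1.

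The genes whose pattern was most like the mean of the class II genes were ranked over 7761 named genes by the smaller of 2 correlations, 1 over the tumor arrays and 1 over the microenvironment arrays (n = 6 each). The first 8 were Oasl2 (0.989), Egr2 (0.983), Pld4 (0.970), Aif1 (0.968), Slc10a6 (0.967), Olfml3 (0.966), Sat1 (0.964) and Ccrl2 (0.961). Aif1, which encodes the macrophage protein Iba1, had 10.39, 8.10, 7.79 and 5.46 in tumor F4 A to D and 8.13 and 5.19 in tumor F0 B2 and B3. Oasl2, an interferon-induced gene, had 8.39, 7.48, 7.19 and 6.68 in tumor F4 A to D and 7.59 and 5.79 in tumor F0 B2 and B3. Both had their highest tumor value on F4 A and their lowest on F0 B3, as did the class II genes except H2-DMb2 and H2-Ob, whose lowest signals, below detection, were on F4 D. Among the genes on the pathway lists the closest were Cd86, in rank 11, and Ctsh, in rank 14. Without tumor F4 A the tumor correlation of these 10 genes was 0.926 to 0.989 over 5 arrays. Slc10a6 was not detected on any tumor array. The level of leukocyte markers differed between the same arrays, and its part in these correlations was not tested.

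The genes that surround class II in its pathway were tested in the same fit, on lists chosen with earlier results of these data known. No gene on these lists passed between F4 and F0, in either fraction. The counts between the F4 fractions are to be read against 11.2% of all genes lower and 24.6% in either direction, and those without the 3 arrays that stood apart against 21.3% lower. Between the fractions of F4 tumors none of 7 transcription factors of the class II promoters passed in either direction, with a median of -0.54. Irf1, which acts on the Ciita promoter, differed by -1.54 ± 0.59 (adjusted p = 0.0701 by limma) and Nfyb, a subunit of NF-Y, by -0.54 ± 0.21 (adjusted p = 0.0728 by limma). Leaving out the 3 arrays, 3 of 7 were lower. Rfx5 was not analysed here.

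None of 7 genes of endosomal processing passed, with a median of -0.46. Ifi30, the thiol reductase that opens antigens in the endosome, averaged 9.34 in tumor F4 and 10.14 in microenvironment F4, a difference of -0.80 ± 0.37 (adjusted p = 0.108 by limma). Ctsh, a cathepsin, differed by -1.48 ± 0.71 (adjusted p = 0.123 by limma). With the 3 arrays left out, 3 of 7 were lower. The cathepsin gene Ctss was not analysed here, nor was H2-Ea.

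Of 7 genes of class II turnover and costimulation 2 passed, both lower in tumor cells, with a list median of -1.85. Cd80, a ligand of CD28, differed by -2.35 ± 0.50 (adjusted p = 0.0178 by limma) and Cd86, the other such ligand, by -2.58 ± 0.79 (adjusted p = 0.0400 by limma). Of 6 genes of the interferon gamma route 4 were lower and none higher, with a median of -2.39. They were Ifng at -4.24 ± 1.23 (adjusted p = 0.0350 by limma), the receptor chains Ifngr1 at -3.01 ± 0.60 (0.0157) and Ifngr2 at -3.12 ± 0.68 (0.0184), and the kinase Jak2 at -1.77 ± 0.27 (0.00670). In the fit that leaves out the 3 arrays, 6 of 7 genes of the first list and 6 of 6 of the second were lower.

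On the side of the T cells that read class II, 5 of 6 partner genes were lower in the tumor fraction. Cd3g had the largest difference at -4.83 ± 1.08 (adjusted p = 0.0191 by limma). Among 9 genes of class I presentation 3 were lower, H2-K1 at -2.0 ± 0.56, Tap2 at -1.71 ± 0.50 and Tapbp at -1.68 ± 0.37, and none was higher. When the 3 arrays were left out, 6 of 6 partner genes and 6 of 9 class I genes were lower. B2m, the light chain of class I, had 13.66 in tumor F4 and 13.96 in microenvironment F4, a difference of -0.30 ± 0.19 (adjusted p = 0.218 by limma). The 10 class II genes had a median of -2.20 beside -1.30 for this class I list.

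Markers of leukocytes were also lower in the tumor fraction of F4, with counts that ran from all to few members of a list. The counts are set against the 11.2% of all genes that were lower there. All 3 B cell markers measured of 8 listed (Cd79a, Cd79b and Fcrla), all 7 T cell markers and 5 of 7 general leukocyte markers were lower. So were 2 of 4 dendritic cell markers (Ccr7 and Siglech) and 1 of 8 macrophage markers (Cd14). Fcrla, Cd79a and Trat1 were not detected on any tumor array. They passed the detection filter only through the microenvironment, so that they were lower in tumor cells follows in part from the filter. The macrophage share was near that of all genes, but 0 of the 8 macrophage markers were above 0. Their median was -0.78, against 0.20 over all genes. Of the other dendritic cell markers Batf3 differed by -1.39 and Zbtb46 by 0.29, neither passing. Which cells account for the class II difference was not tested. Without the 3 arrays that stood apart, where 21.3% of all genes were lower, the counts were 2 of 2 B cell, 7 of 7 T cell, 7 of 7 leukocyte, 3 of 4 dendritic cell and 3 of 8 macrophage markers. With all arrays 1 of 6 melanocyte markers was higher in tumor F4, Mlana at 1.62 ± 0.53 (adjusted p = 0.0468 by limma). Over all genes 1053 of 7894 were higher. Without the 3 arrays the median over these 6 markers was 1.55, against 1.13 with all arrays. The 3 arrays had been set apart by their leukocyte, macrophage and melanocyte means. Counts and differences of these lists without them therefore follow in part from that choice. The general marker Ptprc was not analysed here.

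Within F4 the mean levels of the marker lists overlapped between the fractions for macrophages and, through tumor F4 A, for leukocytes. They did not for B cells and T cells, and within F0 none of these lists overlapped. The mean over 7 T cell markers was 4.57 to 8.14 in tumor F4 and 8.88 to 10.71 in microenvironment F4. In F0 it was 4.45 to 5.36 in the tumor fraction and 7.24 to 10.09 in the microenvironment. The mean over 3 B cell markers was 4.59 to 5.24 in tumor F4, 4.73 to 4.74 in tumor F0, 6.22 to 6.60 in microenvironment F4 and 6.60 to 6.85 in microenvironment F0. Fcrla and Cd79a were not detected on any tumor array, and Cd79b was detected on 1 tumor F4 array. The gap of the B cell list thus follows in part from the detection filter. The mean over 7 leukocyte markers was 6.38 to 10.9 in tumor F4, 6.51 to 8.47 in tumor F0, 10.56 to 11.62 in microenvironment F4 and 10.51 to 11.57 in microenvironment F0. The mean over 8 macrophage markers was 6.39 to 10.2 in tumor F4, 6.94 to 8.55 in tumor F0, 8.48 to 10.64 in microenvironment F4 and 8.92 to 9.21 in microenvironment F0.

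The mean of the 10 class II genes is set beside these marker means array by array. It was 9.36, 7.67, 7.31 and 6.41 in tumor F4 A to D, 8.22 and 5.36 in tumor F0 B2 and B3, 9.03, 10.53, 10.73 and 9.08 in microenvironment F4 A to D and 9.81 and 9.14 in microenvironment F0 B2 and B3. Leukocyte markers were detected on every tumor array, 5 to 7 of 7 in F4 and 5 to 6 of 7 in F0. Their part in the class II signal of the tumor fraction was not tested.

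**Figure D4:**
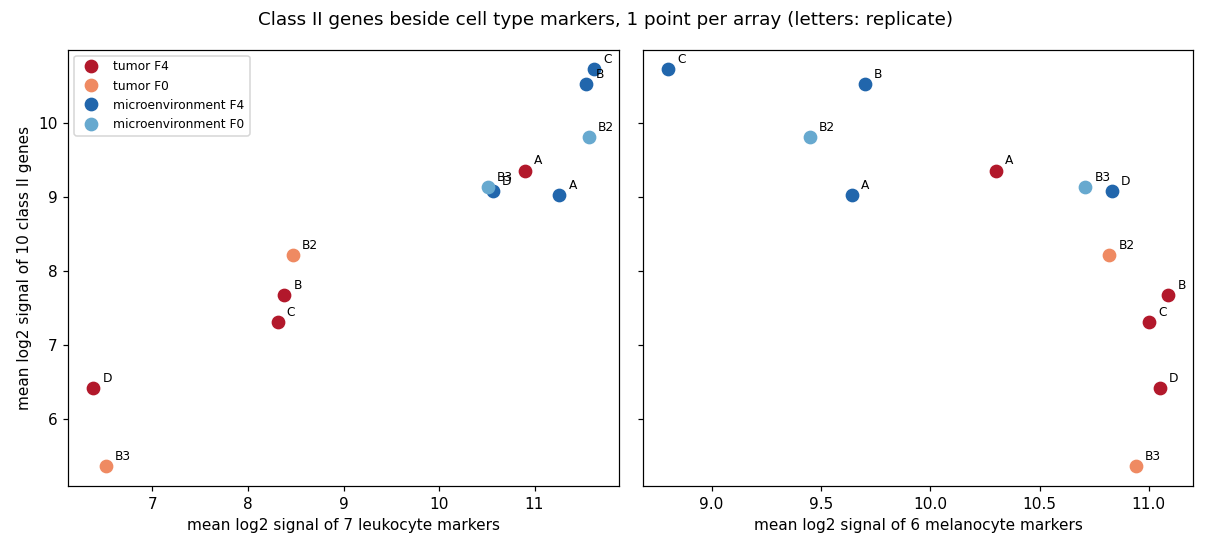
Mean log2 signal of the 10 class II genes (y axis) against the mean of 7 leukocyte markers (left) and of 6 melanocyte markers (right), 1 point per array with its pool as a letter. Tumor F4 A (9.36 for class II, 10.9 for leukocyte markers) lies beside the microenvironment arrays, and tumor F0 B3 lies below tumor F4 D at a like leukocyte mean.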

How the data were processed

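RNA of 12 samples was hybridised to single-colour Illumina mouse bead arrays. GenomeStudio is named in the submitters' processing notes, its version is not given in the sources used here, and the array build is not stated. For 25697 probes the authors deposited an intensity on a linear scale before normalization and a detection p-value for each array, per the file headers. They also deposited a table of processed intensity for 12824 probes. Its normalization is not stated, and it served as an alternative.

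In R 4.3.3 with limma 3.58.1, neqc corrected the background (normexp, from the detection p-values, offset 16) and quantile-normalized all arrays. A probe was kept when its detection p was under 0.01 on 2 or more arrays (11224 probes), and the brightest probe stood for a gene, which left 7894 genes. Of 12096 probes with a gene symbol 12090 matched RefSeq by Entrez identifier. lmFit and eBayes fitted 4 group means to the 12 arrays, with Benjamini-Hochberg adjustment over all genes, and every adjusted p of a gene is limma's. The fit was tested on simulated data. The number of arrays limits the precision.

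Other scalings, filters, probe rules, weights, left-out arrays and a pool block were tried. The pairing comes from the labels, since both fractions of a pool were sorted from the same mice. Deviations from the group means correlated between fractions at 0.113, 0.107, -0.072 and 0.562 for F4 A to D, and at 0.393 in F0. All 10 genes are named. From each pathway or marker list up to 5 genes with the smallest p between the F4 fractions were eligible, with Ifi30, Ifngr1 and Mlana always. The genes and lists were chosen with earlier results of these data known.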

Additional observations from a re-analysis of the deposited data

Results flagged for a closer look

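Among 22 sets of 4 arrays tested, the 10 genes and their mean in tumor F4 and in microenvironment F4, 2 held an array far from the others, where chance flags about 1 in 20. H2-Oa stood at 6.09 on tumor F4 A, with the other tumor F4 arrays between 4.43 and 4.56. H2-Ob stood at 5.56 on tumor F4 A, with the others between 4.44 and 4.51. Both are chains of H2-O, detected on F4 A and below detection on tumor F4 B, C and D. Signals at the floor lie close together, so the rate of 1 in 20 cannot be applied to these 2 sets. Tumor F4 A is also among the arrays that stood apart in the markers of other cell types.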

How the results depend on the processing

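Between the F4 fractions 4 class II genes passed, where 886 of 7894 genes were lower and 1939 passed in either direction. With detection required on at least 6 arrays, which dropped H2-DMb2 and left 9 class II genes, 2 passed, beside 724 of 6701 genes lower. Array weights gave 10, beside 2228 of 7894 genes lower and 5899 in either direction. Without the 3 arrays that stood apart 9 passed, beside 1661 of 7810 genes lower. With single F4 arrays left out 1 to 7 passed, beside 77 to 3249 genes in either direction. Between the F0 fractions the count was 0, where 51 of 7894 genes were lower and 72 passed in either direction. Median scaling gave 2, beside 195 genes lower and 5576 in either direction. Array weights gave 3, beside 171 genes lower and 212 in either direction. With single F4 arrays left out it was 0 to 3, beside 20 to 613 genes in either direction. Settings that keep 1 array of an F0 group are not counted there. With the pool as a replicate block the counts were 5 in F4, 0 in F0 and 0 for the difference between the F4 minus F0 differences. That fit gave 2616, 503 and 0 of all 7894 genes in either direction. The F4 minus F0 counts were 0 under all settings in both fractions. Over all genes the F4 count between fractions was 1939 and ran from 77 without tumor F4 C to 5899 with array weights. Median scaling moved the median of all genes between the F4 fractions to 1.22, against 0.20, and between the F0 fractions to 1.68, against 0.19. It moved the share of calls that were higher in tumor cells to 93.1%, against 54.3%, in F4, and to 96.5%, against 29.2%, in F0. Under it H2-DMb1 reversed to 0.37 in F4 and 0.93 in F0, or -0.85 and -0.75 relative to all genes, and in F4 Nfyb reversed to 0.89, Nfyc to 1.13, Cst3 to 0.47, Ifi30 to 0.65, Ctsb to 0.82 and Icam1 to 0.10.

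Of the F4 minus F0 differences, none of which passed, these reversed. In tumor cells Ciita was -0.01 under median scaling, -0.01 in the authors' table, -0.25 with array weights and -0.38 without the 3 arrays, which put H2-Ob at -0.03. In the microenvironment H2-DMb2 was 0.01 under median scaling and 0.15 with array weights, and without the 3 arrays H2-Oa was 0 and H2-Ob -0.03. For the difference between both, array weights gave -0.43 for H2-Aa, -0.42 for H2-DMa, -0.04 for H2-DMb2 and -0.72 for H2-Oa, which was also -0.18 under median scaling, -0.05 with no background correction and -0.09 with an offset of 50. With single arrays left out, the tumor differences ran from -0.57 to 2.88 for H2-Aa, -0.89 to 4.36 for H2-Ab1, -1.23 to 4.40 for H2-Eb1, -1.14 to 3.24 for H2-DMa, -0.54 to 1.41 for H2-DMb1, -0.03 to 0.33 for H2-Ob, -1.09 to 4.54 for Cd74 and -0.63 to 1.07 for Ciita. Those in the microenvironment ran from -0.09 to 0.65 for H2-DMa, -0.89 to 0.07 for H2-DMb2, -0.16 to 1.03 for H2-Oa and -0.05 to 0.69 for H2-Ob. The differences between both ran from -1.04 to 2.40 for H2-Aa, -1.37 to 3.89 for H2-Ab1, -1.71 to 3.92 for H2-Eb1, -1.42 to 2.96 for H2-DMa, -1.02 to 0.94 for H2-DMb1, -0.53 to 0.65 for H2-Oa, -0.44 to 0.30 for H2-Ob, -1.69 to 3.95 for Cd74 and -1.24 to 0.46 for Ciita. The cause was not tested. Where a group kept 1 array, that array was assumed to vary like the other groups. H2-DMb2, H2-Oa and H2-Ob lay near the detection limit in tumor cells, which compresses their differences.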
